A study of Mus musculus with 3 samples.

Results

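The cells described here carried the transcripts of Enpp6, Tcf7l2 and Bcas1, which mark oligodendrocytes that have just left the precursor state, and were taken from the arcuate nucleus of the mouse hypothalamus. Barcodes were kept from 500 detected genes upwards, with no more than 20% of their UMIs (unique molecular identifiers, each standing for 1 captured transcript) from mitochondrial genes. A kept barcode was selected with at least 3 UMIs of Enpp6, 1 of Tcf7l2 and 1 of Bcas1. It also had to have under 2 UMIs each of Bmp4 (committed precursors), Pdgfra (precursors), Cldn5 (endothelium), Cx3cr1 (microglia) and Ntsr2 (astrocytes). On GRCm38, Enpp6 lies at chr8:46986887-47096762 on the plus strand, Tcf7l2 at chr19:55741820-55933654 on the plus strand and Bcas1 at chr2:170346991-170427845 on the minus strand. In all, 175 of 14869 kept barcodes met the rule, out of 21143 deposited. Because these UMI counts chose the cells, the levels of the 8 genes are given below as a description and support nothing.

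Each of the 3 libraries came from 1 pool of 6 male C57BL/6JRj mice aged 5 to 6 weeks, so a diet is 1 sample and no difference between diets has a replicate check or a p-value. The SC library came from mice on standard chow for 15 days from weaning. The HFHS_5d library came from mice on chow for 10 days and then on a high-fat high-sucrose diet for 5 days, and the HFHS_15d library from mice on that diet for 15 days. Tissue was micropunched, dissociated with enzymes, and read with droplet-based 3' single-cell RNA sequencing. The rule selected 76 cells in SC, 44 in HFHS_5d and 55 in HFHS_15d. Intervals below are exact at 95% and reflect the counting of UMIs or cells alone; variation among mice, pools and dissociations is outside them.

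Oligodendrocytes are made from precursor cells that divide, commit, leave the cell cycle and then wrap axons with myelin. Enpp6 encodes a choline phosphodiesterase that is switched on for a short time early in differentiation, Tcf7l2 encodes a transcription factor of the Wnt pathway that acts in the same window, and Bcas1 encodes a protein of cells that are starting to myelinate. Myelin is rich in cholesterol, which oligodendrocytes make themselves, and its synthesis limits the growth of myelin. The arcuate nucleus lies beside the median eminence, senses hormones and nutrients, and keeps making oligodendrocytes in young adults.

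The label of newly formed oligodendrocytes held for about as many of the selected cells as it did not. The long noncoding RNA 9630013A20Rik, which was not part of the rule, divided them into 2 kinds with few cells between. In 86 of the 175 cells (49.1%) it had at least 5 UMIs, with a lowest value of 5 in SC, 5 in HFHS_5d and 7 in HFHS_15d, and medians of 61, 109 and 49.5 UMIs. In the other 89 cells (50.9%) it had 0 to 4 UMIs, and was detected at all in 5 of 47, 1 of 23 and 3 of 19 cells. This division was made after the values were seen. The cells with at least 5 UMIs are called 9630013A20Rik-high and the others 9630013A20Rik-low.

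Summed together, the 9630013A20Rik-low cells had the transcripts of mature oligodendrocytes. Mog, a surface protein of the outermost myelin layer, stood at 2248 CPM (UMIs per 1000000 UMIs of the summed cells) in SC, 1934 in HFHS_5d and 1964 in HFHS_15d. Mature oligodendrocytes, taken as kept barcodes with at least 2 UMIs each of Trf and Ermn and under 3 of Enpp6, had 2242, 2245 and 1769 CPM of Mog. Mal, a lipid-raft protein of compact myelin, was likewise at 10330, 7281 and 10050 CPM in the 9630013A20Rik-low cells against 12200, 11580 and 11780 CPM in mature cells. In the 9630013A20Rik-high cells that lacked Trf or Ermn at that level, by contrast, Mog was at 333, 221 and 120 CPM and Mal at 16.8, 29.1 and 26.6 CPM. As a group the 9630013A20Rik-low cells therefore went against the label. Exceptions were 3, 1 and 4 cells that lacked 2 UMIs of Trf or Ermn. Of the 9630013A20Rik-low cells, 3, 1 and 3 had 0 Mog, at totals of 1114 to 20417 UMIs, and 5 of these fell in clusters led by 9630013A20Rik or Bmp4. Of the cells with 0 Mog, those with totals of 2457 UMIs in SC and 2278 in HFHS_5d had 12.2 and 8.78 UMIs of 9630013A20Rik per 10000. The lowest 9630013A20Rik-high cells of these libraries had 11.3 and 8.13 per 10000. The division counts UMIs, so it depends on depth, and the part of depth was not tested.

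**Figure D1:**
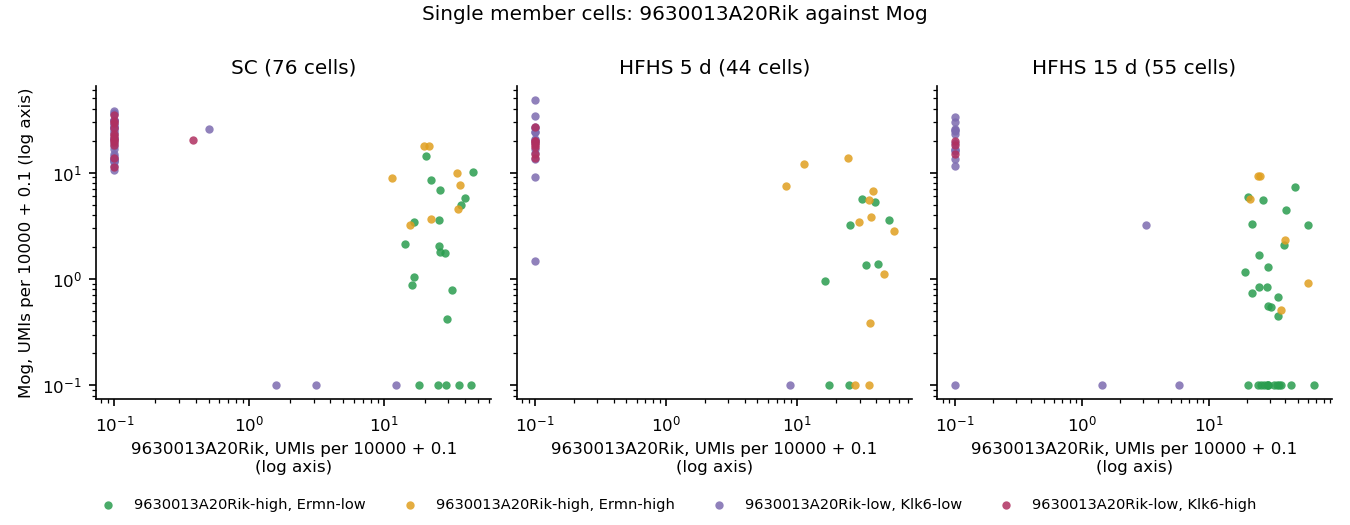
Each point is 1 selected cell, with 9630013A20Rik on the x axis and Mog on the y axis, both as UMIs per 10000 UMIs of the cell plus 0.1 on log axes, with 1 panel for each library. The colours mark the 4 kinds of cell. Most 9630013A20Rik-high cells sit at the right with less Mog and most 9630013A20Rik-low cells at the left with more. There were exceptions in both kinds. Among 9630013A20Rik-low cells 7 had 0 Mog, most of them with some 9630013A20Rik and so away from the left edge. The highest Mog of a 9630013A20Rik-high cell was 17.5 per 10000.

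Both kinds divided once more. Of the 86 9630013A20Rik-high cells, 60 lacked 2 UMIs of Trf or Ermn (21, 9 and 30 in SC, HFHS_5d and HFHS_15d), and 26 had both (8, 12 and 6); they are called Ermn-low and Ermn-high. Of the 89 9630013A20Rik-low cells, 24 had at least 2 UMIs of Klk6, a serine protease of a mature oligodendrocyte subtype (13, 8 and 3), and 65 did not (34, 15 and 16). In a joint clustering made without the 8 genes of the rule, 84 of the 86 9630013A20Rik-high cells fell in a cluster of 301 barcodes. It was led by 9630013A20Rik, Onecut2, Npb, Nfasc, Wfdc18 and Ctps, and took 94 selected cells in all. 9630013A20Rik itself was not left out of the clustering, so this placement is no separate support for the division. The same cluster held 78 mature cells and 12 committed precursors. Of the other selected cells, 47 fell in a cluster of 1054 barcodes led by Ptgds, Pls1, D7Ertd443e, Tnfaip6 and Mal, and 25 in a cluster of 238 led by Nkx2-9, Klk6, Hapln2 and Anln. A further 5 cells joined a cluster of 189 barcodes led by Bmp4, Matn1 and Gpr17.

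Depth differed between the libraries. Kept barcodes had median totals of 5212, 5801.5 and 4172 UMIs in SC, HFHS_5d and HFHS_15d, and the selected cells 19138.5, 31754 and 13988, so the rule took deep barcodes. Their summed UMIs were 1727172, 1276921 and 829094, with 4.11%, 4.66% and 4.10% from mitochondrial genes. Between 4 and 27 kept barcode sequences were shared by pairs of libraries, and 0 of the selected ones. Transcripts of other types were low in the selected cells. The 12 microglial markers summed to 59.1, 44.6 and 53.1 CPM, the 12 astrocyte markers to 308, 476 and 364, and the neuron markers to 284, 1419 and 227. Endothelial markers summed to 28.4, 44.6 and 56.7 CPM, ependymal to 75.8, 171 and 112, tanycyte to 59.6, 54.0 and 79.6, and those of mural and vascular leptomeningeal cells to under 15 CPM. The neuron value of HFHS_5d came with 2 cells that had 1% or more of their UMIs from that list, 1 of them 3.65%.

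The threshold on Enpp6 cut through the mature cells. Just inside it, the cells with exactly 3 UMIs of Enpp6 numbered 15, 10 and 6 and had 1849, 1778 and 2095 CPM of Mog. Just outside it, 8, 10 and 13 barcodes with 2 UMIs of Enpp6 met every other condition. Another 67, 29 and 32 barcodes met all conditions but Tcf7l2, and 66, 26 and 31 of these had Trf and Ermn. At the younger end, 64, 39 and 52 barcodes would have entered but for 2 or more UMIs of Bmp4.

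Along the lineage, Enpp6 was close to absent in precursors and peaked around commitment and the Ermn-low cells. It lay at 2.69, 0.963 and 3.24 CPM in SC, HFHS_5d and HFHS_15d in precursor cells (Pdgfra and Cspg4), and at 1554, 1435 and 1179 CPM in committed precursors (Bmp4 and Gpr17). Ermn-low cells had 1923, 1244 and 1463 CPM and Ermn-high cells 324, 530 and 647 CPM. The Klk6-high and Klk6-low mature-like cells had 573, 588 and 456 CPM and 251, 220 and 357 CPM. In mature cells, which the rule on Enpp6 keeps low, it was at 26.2, 20.5 and 32.6 CPM. Microglia, taken as kept barcodes with at least 5 UMIs of Cx3cr1 and under 3 of Enpp6, had 1.01, 1.57 and 1.69 CPM. That limit keeps their Enpp6 low, and the part of free RNA was not tested. The order of the Ermn-low cells and the committed precursors was the same way in SC and HFHS_15d and the other way in HFHS_5d.

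The rule asks for 3 UMIs of Enpp6 and 1 of Tcf7l2, so how far each gene separated the kinds cannot be compared. Among the groups given here, Tcf7l2 was highest in the Ermn-low cells. Its level was 784, 635 and 588 CPM in committed precursors and 1902, 1488 and 1855 CPM in Ermn-low cells. It then lay at 376, 810 and 1069 CPM in Ermn-high cells, and at 90.9, 107 and 146 CPM in the 9630013A20Rik-low cells, beside 44.7, 45.0 and 47.3 CPM in mature cells and 73.0, 94.6 and 79.5 CPM in microglia. Per cell, Ermn-low cells had medians of 42, 25 and 28 UMIs of Tcf7l2, and Klk6-low cells a median of 2 in every library. The minimum of 1 UMI thus admitted cells whose Tcf7l2 was near the level of microglia. Bcas1 was highest before the selected cells, at 2526, 2531 and 2439 CPM in committed precursors, 1133, 883 and 764 in Ermn-low cells, and 261, 295 and 298 in Ermn-high cells.

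9630013A20Rik itself was already high in committed precursors, and in the Ermn-low and Ermn-high cells the minimum of 5 UMIs keeps it high. It is a gene annotated as antisense on GRCm38, chr14:84458639-84476424, minus strand, and whether the counting used strand is not given in the sources used here. Its level was 951, 610 and 600 CPM in committed precursors, 2771, 3214 and 3320 in Ermn-low cells and 2296, 3181 and 3527 in Ermn-high cells. In mature cells it was at 78.8, 28.3 and 45.7 CPM, and in microglia at 1.52, 0.940 and 0.964. At least 1 UMI was found in 88.5%, 95.5% and 93.5% of committed precursors and in 6.10%, 5.02% and 6.42% of mature cells.

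**Figure D2:**
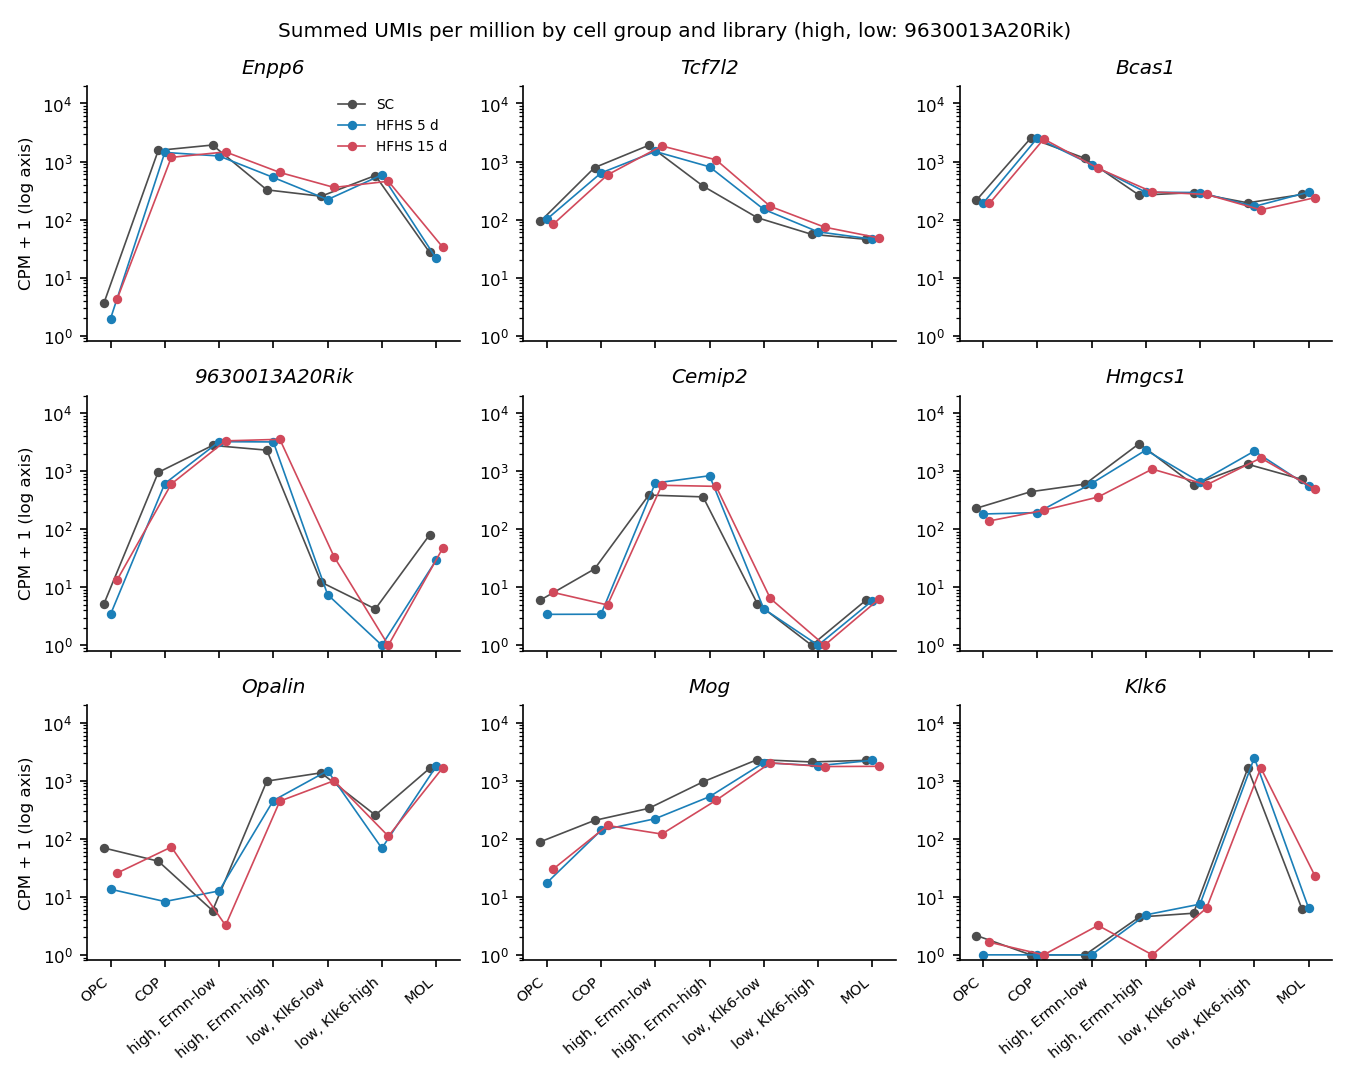
The y axis gives CPM plus 1 on a log axis for 9 genes, 1 panel each, and the x axis the stages from precursors (OPC) through committed precursors (COP) and the 4 kinds of selected cell to mature oligodendrocytes (MOL), with 1 line for each library. Enpp6 and Bcas1 are highest around committed precursors and Ermn-low cells, and Cemip2 and 9630013A20Rik in the 9630013A20Rik-high cells. Opalin, Mog and Klk6 are highest in later cells. The genes of the rule, 9630013A20Rik and Klk6 also set these groups, so their places are not results.

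Counting all kept barcodes with at least 5 UMIs of 9630013A20Rik shows how much of that state the Enpp6 rule reached. There were 98, 66 and 90 such barcodes in SC, HFHS_5d and HFHS_15d, or 1.92% [1.56 to 2.33], 1.55% [1.20 to 1.97] and 1.64% [1.32 to 2.01] of kept barcodes. Of them 29, 21 and 36 were selected cells and 46, 31 and 37 had 2 or more UMIs of Bmp4. A further 10, 5 and 7 had Trf and Ermn but under 3 UMIs of Enpp6, at median totals of 42283, 40185 and 29682 UMIs. In those cells Enpp6 was at 6.51, 27.7 and 28.1 CPM and Opalin, a myelin membrane glycoprotein, at 1432, 2784 and 2366 CPM. Some cells with 9630013A20Rik, Trf and Ermn thus had Enpp6 near the level of mature cells.

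The genes that set the 9630013A20Rik-high cells apart were read by a fixed size: a ratio of at least 2 in the same direction within each of the 3 libraries. These comparisons describe cells chosen by their own transcripts and carry no test. Against committed precursors, 386 of 5660 genes (6.82% of the genes compared) were higher and 561 (9.91%) lower. Against precursors, 645 of 6949 genes (9.28%) were higher and 1663 (23.9%) lower. Against mature cells, 525 of 5240 genes (10%) were higher and 415 (7.92%) lower. The 9630013A20Rik-low cells differed from mature cells in far fewer genes, 64 higher (1.31%) and 8 lower (0.164%) of 4871, and from committed precursors in 562 higher (9.68%) and 777 lower (13.4%) of 5807. Over all 175 cells pooled, 487 genes (8.35%) were higher and 544 (9.33%) lower than in committed precursors, and 264 (5.23%) higher and 41 (0.812%) lower than in mature cells.

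In 134 of 4831 genes (2.77%) the 9630013A20Rik-high cells were above precursors, committed precursors and mature cells at once. Cemip2, a cell-surface hyaluronidase, led them. Its median log2 ratio over the libraries was 6.19 against the stage nearest to it, and this value is given for the others too. It was at 386, 622 and 569 CPM in Ermn-low cells, against 19.6, 2.43 and 3.95 in committed precursors and 4.95, 4.86 and 5.21 in mature cells. Rras2, a Ras-family GTPase, followed with 4.96. Its level was 462, 604 and 443 CPM in Ermn-low cells and 34.3, 15.8 and 13.2 in committed precursors. Others were Prom1 (3.8), a pentaspan protein of membrane protrusions, Rgs16 (3.67), a regulator of G-protein signalling, Plaur (3.51), the urokinase receptor, Kcnj12 (3.33), an inward-rectifier potassium channel, and Il23a (3.26), a cytokine subunit. These were stage-restricted in all 3 pools. In 78 of 4858 genes (1.61%) the cells were below both committed precursors and mature cells.

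Against committed precursors alone, Cemip2 again had the largest ratio. Sema3e, a secreted semaphorin (log2 ratio 5.55), S1pr5, a sphingosine 1-phosphate receptor (5.52), and Tspan9, a tetraspanin (4.78), were among the 10 largest. Lower were Bmp4, which the rule limited (-8.52), C1ql1 (-7.61), a secreted C1q-like protein, Rgcc (-7.33), Brinp1 (-6.57) and Car8 (-5.96). Compared with mature cells, Rassf10 (8.97), the prostaglandin E receptor gene Ptger1 (7.71), Tnr, which encodes the matrix protein tenascin-R (7.16), the pannexin Panx1 (6.74) and the homeobox gene Barx2 (6.52) were higher. Rassf10 was at 438, 407 and 356 CPM in Ermn-low cells and at 0.354, 0.18 and 0.905 in mature cells. The transcription factor gene Etv1 (-6.69), Mal (-6.27), Serpinb1a (-6.22), Apod (-6.02) and Edil3 (-5.73) were lower.

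For each list below, the same counts over all 5163 genes with at least 50 UMIs were 386 higher and 195 lower against committed precursors (median -0.05), and 525 higher and 154 lower against mature cells (median 0.31). Of 18 receptor genes with at least 50 UMIs, 8 were higher in 9630013A20Rik-high cells than in committed precursors and 2 lower, with a median log2 ratio of 0.74. Against mature cells 4 were higher and 1 lower (median 0.17). Lpar1, a lysophosphatidic acid receptor, was at 107, 29.1 and 32.9 CPM in committed precursors, 383, 401 and 378 in Ermn-low cells and 965, 915 and 647 in Ermn-high cells. Erbb3, a neuregulin receptor, was at 14.7, 8.5 and 19.7 CPM, then 19.2, 81.4 and 44.3, then 195, 105 and 160 in the same order. In mature cells Lpar1 was at 784, 714 and 601 CPM and Erbb3 at 116, 98.1 and 111, so the Ermn-high cells were at or above the mature level of both. Gpr17, a receptor that holds back differentiation, was lower than in committed precursors (-2.81), at 529, 418 and 423 CPM in Ermn-low cells against 2480, 3145 and 2931. Gpr17 was read in choosing the committed precursors, so its direction is not a result, and it is among the 2 counted as lower. Tnfrsf21, the death receptor DR6, was highest in the Ermn-low cells: 91.6, 85.0 and 78.9 CPM in committed precursors, 309, 215 and 246 in Ermn-low cells and 4.07, 2.70 and 5.66 in mature cells.

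Of 19 adhesion and axon-contact genes, 7 were higher and 5 lower than in committed precursors (median 0.56), and 10 higher and 3 lower than in mature cells (median 1.30). All genes stood at 386 and 195, and at 525 and 154, so the split of directions was near that of all genes. Sema4d, a membrane semaphorin, was at 372, 191 and 256 CPM in committed precursors, 1150, 1639 and 1791 in Ermn-low cells, 1861, 1724 and 2065 in Ermn-high cells and 313, 304 and 367 in mature cells. Cntn1 (contactin 1), Sema6a and Nfasc, whose glial form joins oligodendrocytes to axons beside the node, were likewise highest in the 9630013A20Rik-high cells, with Cntn1 at 1680, 1773 and 1353 CPM in Ermn-high cells and 228, 197 and 152 in mature cells. Cadm1, an adhesion molecule, peaked earlier, at 1092, 1040 and 961 CPM in Ermn-low cells and 247, 353 and 400 in Ermn-high cells. Ncam1 (-3.02), a neural cell adhesion molecule, was lower than in committed precursors.

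Myelin genes came on in steps. Of 19 myelin protein genes, 8 were higher and 1 lower than in committed precursors (median 1.14, beside -0.05 for all genes, of which 386 of 5163 were higher and 195 lower). Against mature cells 1 was higher and 5 lower (median -0.46, beside 0.31 for all genes, with 525 and 154). Mbp, myelin basic protein, was already at 13250, 11870 and 12010 CPM in Ermn-low cells, against 5991, 4324 and 3696 in committed precursors and 5348, 5276 and 4814 in mature cells. Mag, an adhesion protein of the inner myelin membrane, was highest in Ermn-high cells, at 11380, 9106 and 6639 CPM, with 3865, 5242 and 3909 before and 4062, 3948 and 3698 after. Mbp in Ermn-low cells and Mag in Ermn-high cells were above their mature levels, and Mbp was so in SC already in committed precursors.

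Opalin and Mal came on later. Opalin was at 4.79, 11.6 and 2.21 CPM in Ermn-low cells, 983, 454 and 444 in Ermn-high cells and 1631, 1763 and 1661 in mature cells. Mal was still at 115, 188 and 720 CPM in Ermn-high cells. Mobp, which shares a strand and span with the gene model Gm38642, was at 436, 819 and 664 CPM in Ermn-low and 5060, 3655 and 3272 in Ermn-high cells. Cd9, a tetraspanin, went the other way (-3.26 against committed precursors), from 6380, 7189 and 5641 CPM to 1456, 965 and 666 in Ermn-low cells.

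Of 20 myelin lipid genes, 5 were higher and 0 lower than in committed precursors (median 0.45, beside 386 higher and 195 lower of 5163 genes and a median of -0.05). Against mature cells 3 were higher and 1 lower (median 0.20, beside 0.31 for all genes). The 5 were Elovl6 (2.15), Elovl1 (1.99) and Elovl7 (1.49), which lengthen fatty acids, Ugt8a (1.70), which makes galactosylceramide, and Cers2 (1.37), a ceramide synthase. Ugt8a was at 531, 373 and 406 CPM in committed precursors and 1864, 1532 and 1723 in Ermn-high cells, above the 1148, 1073 and 1087 of mature cells.

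As a summed level, the cholesterol pathway was higher in the Ermn-high cells than in the stages before and after. Its 24 genes summed to 2384, 1521 and 1770 CPM in committed precursors of SC, HFHS_5d and HFHS_15d and to 3782, 3865 and 3059 in Ermn-low cells. In Ermn-high cells they summed to 9555 [9201 to 9920], 9725 [9458 to 9998] and 7024 [6588 to 7482] CPM, and in mature cells to 3116, 2809 and 2563. Klk6-high cells also had much of it, with 4786, 7665 and 5606 CPM. Per cell the pathway took a median of 0.986%, 0.856% and 0.444% of UMIs in Ermn-high cells, with a lowest cell at 0.595%, 0.141% and 0.272% and a highest at 1.46%, 2.23% and 1.69%. Klk6-high cells had medians of 0.425%, 0.701% and 0.621%, the last above that of Ermn-high cells in the same library. Ermn-low cells had medians of 0.198%, 0.273% and 0.196%, and mature cells 0.255%, 0.237% and 0.220%. With 8, 12 and 6 Ermn-high cells the per-cell ranges overlapped those of the other stages.

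**Figure D3:**
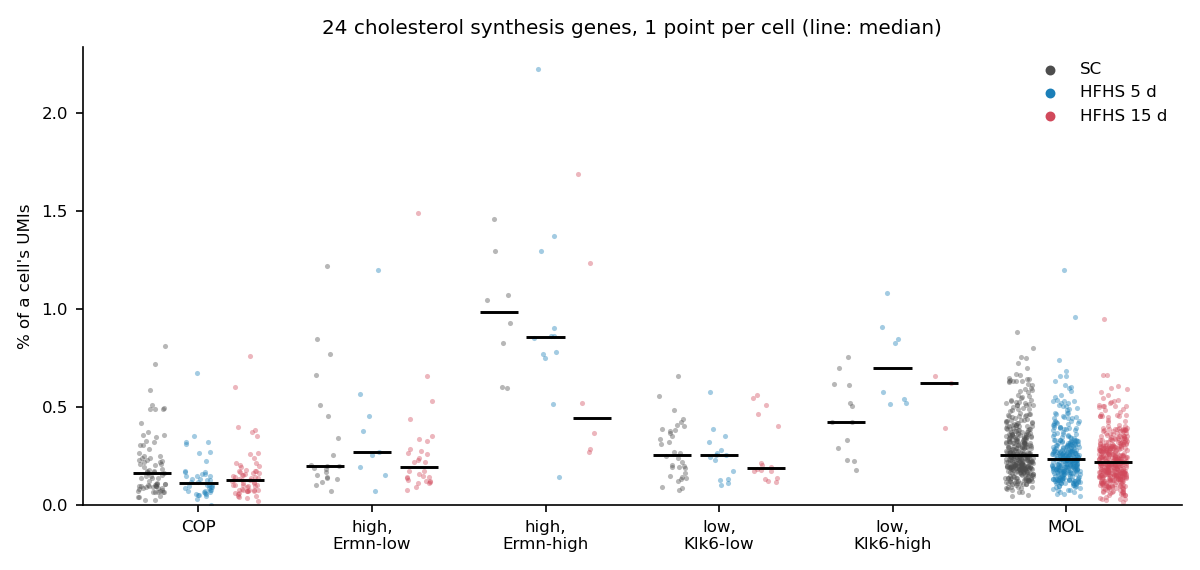
The y axis gives the percent of each cell's UMIs in the 24 cholesterol genes, with 1 point for each cell, a line at the median, and the stages along the x axis for each library. The medians of Ermn-high cells (0.986%, 0.856% and 0.444%) are above those of Ermn-low and mature cells in all 3 libraries, and the points of the stages overlap.

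Across the pathway, 12 of 23 genes with at least 50 UMIs were higher in 9630013A20Rik-high cells than in committed precursors and 0 lower (median log2 ratio 1.42), and 7 were higher and 0 lower than in mature cells (median 0.96). Over all 5163 genes these counts were 386 and 195, and 525 and 154. Mvd, a decarboxylase of the mevalonate pathway, had log2 ratios of 1.72 against committed precursors and 1.98 against mature cells. Hmgcs1, which makes HMG-CoA, was at 441, 192 and 210 CPM in committed precursors, 596, 610 and 356 in Ermn-low cells, 2980, 2301 and 1083 in Ermn-high cells and 718, 545 and 488 in mature cells. Msmo1, a sterol demethylase, was at 882, 757 and 458 CPM and Idi1, an isopentenyl diphosphate isomerase, at 739, 738 and 574 in Ermn-high cells, above 323, 333 and 246 and 231, 201 and 174 in mature cells. All 3 were higher in Ermn-high cells than in committed precursors and mature cells.

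The promoters of Hmgcs1, Msmo1 and Idi1 are shown. Of the pathway genes considered in the promoter table, these had the most UMIs in Ermn-high cells. Each runs 5' to 3' from 250 bases before to 50 bases after the RefSeq start on GRCm38.p6; Hmgcs1 at chr13:119690101-119690400 on the plus strand, Msmo1 at chr8:64733529-64733828 on the minus strand and Idi1 at chr13:8885356-8885655 on the plus strand. Capitals mark the CCAAT box (CCAAT, or ATTGG on the other strand), which the factor NF-Y binds, and the sterol regulatory element (TCACCCCAC, or GTGGGGTGA), which sterol-sensing factors bind.
Hmgcs1: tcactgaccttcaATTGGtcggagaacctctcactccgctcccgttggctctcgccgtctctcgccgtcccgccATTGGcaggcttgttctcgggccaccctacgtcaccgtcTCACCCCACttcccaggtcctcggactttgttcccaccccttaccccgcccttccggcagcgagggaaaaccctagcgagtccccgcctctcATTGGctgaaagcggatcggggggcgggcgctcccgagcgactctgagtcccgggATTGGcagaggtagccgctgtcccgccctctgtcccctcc
Msmo1: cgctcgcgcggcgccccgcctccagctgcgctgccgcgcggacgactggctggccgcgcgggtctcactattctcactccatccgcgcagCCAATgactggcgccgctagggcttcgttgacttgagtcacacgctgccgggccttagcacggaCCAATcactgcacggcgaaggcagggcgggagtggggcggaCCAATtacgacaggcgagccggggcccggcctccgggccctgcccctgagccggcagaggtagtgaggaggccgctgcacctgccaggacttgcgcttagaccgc
Idi1: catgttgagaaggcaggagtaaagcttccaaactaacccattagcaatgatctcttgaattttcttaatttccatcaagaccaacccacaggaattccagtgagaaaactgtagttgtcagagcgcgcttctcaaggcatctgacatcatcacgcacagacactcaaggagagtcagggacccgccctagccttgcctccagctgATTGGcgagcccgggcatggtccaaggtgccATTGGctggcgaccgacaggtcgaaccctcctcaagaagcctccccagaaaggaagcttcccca
The Hmgcs1 window held 4 CCAAT boxes and 1 sterol regulatory element, the Msmo1 window 3 CCAAT boxes and the Idi1 window 2. Of the 24 pathway genes, 17 were in the promoter table, and 16 of these (94.1%) held a CCAAT box, beside 12289 of all 32851 promoters (37.4%). The exact sterol element was in 1 of the 17 (5.88%) and in 181 of all promoters (0.551%). A pathway gene was counted as holding a motif if any of its promoters did, while the background counts each promoter, so these shares are not in the same unit. A match is a description of these letters, not a bound site.

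Of 27 transcription factors of the lineage, 1 was higher and 4 lower than in committed precursors (median -0.33), beside 386 and 195 of all 5163 genes. Against mature cells 6 were higher and 3 lower (median 0.27). Sox4, which acts in immature cells, was at 1157, 1107 and 755 CPM in committed precursors, 1027, 767 and 804 in Ermn-low cells, 178, 231 and 262 in Ermn-high cells and 19.6, 13.3 and 20.4 in mature cells. Nkx2-2, which acts around commitment, was at 246, 299 and 250 CPM in committed precursors and already at 7.18, 0 and 2.21 in Ermn-low cells, where 3 UMIs would be 17.4 CPM in HFHS_5d. Mycl (-2.23) and Nfia (-1.48) were also lower, and Zfp536 (1.84) higher. Myrf, the master factor of myelin genes, was at 175, 147 and 175 CPM in committed precursors and 323, 325 and 385 in Ermn-low cells, short of a ratio of 2 in SC. Of 12 Wnt, BMP and Notch genes, 5 were higher and 1 lower than in committed precursors (median 0.48), and 1 was higher and 2 lower than in mature cells (median -0.23). Among the 5 were Daam2 (2.85), a formin of the Wnt pathway, Smad7 (2.59), which blocks BMP and TGF-beta signals, and the Notch target Hey1 (1.43). Smad7 was at 157, 125 and 112 CPM in committed precursors, 623, 686 and 651 in Ermn-low cells and 453, 443 and 486 in mature cells.

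The Ermn-high cells differed from the Ermn-low cells in 91 higher (2.79%) and 73 lower (2.24%) of 3261 genes. Trf and Ermn chose these 2 groups and are not results. Higher were Opalin (6.67), Igsf8 (4.45), an immunoglobulin-family partner of tetraspanins, Car2, carbonic anhydrase 2 (3.97), the transcription factor gene Onecut2 (3.82) and the troponin gene Tnni1 (3.77). Lower were Ppfibp1, a liprin (-5.83), the kinase gene Sgk1 (-4.58), the translation inhibitor Pdcd4 (-4.20), and the AMPA receptor subunit Gria2 (-3.91). Onecut2 was at 2.40, 23.2 and 13.3 CPM in Ermn-low cells and 286, 194 and 211 in Ermn-high cells. Gria2 was at 304, 145 and 325 CPM and then at 10.4, 17.5 and 14.5. The median total of Ermn-high cells was 38024.5, 38850 and 23506 UMIs against 23140, 21283 and 14039.5 in Ermn-low cells.

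Ranking all selected cells by their share of myelin protein UMIs, and dividing each library at its tertiles, put the 9630013A20Rik-high cells mostly in the lower ranges. From the lowest to the highest range, Igsf8 (median log2 ratio 4.01), Grb14 (3.96), Tnni1 (3.91), Tmod1 (3.69) and Onecut2 (3.48) were higher and Ppfibp1 (-5.05), Ptger1 (-4.98), Ptprj (-4.86), Timp4 (-4.71) and Itgb7 (-4.69) lower. Enpp6 was at 1665, 820 and 1617 CPM in the lowest range and 192, 347 and 392 in the highest. The ranges mixed the kinds: 6, 5 and 4 cells of the lowest range and 20, 10 and 13 of the highest were 9630013A20Rik-low.

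The 9630013A20Rik-low cells were led away from mature cells by Klk6 and its companions. Klk6 had a median log2 ratio of 6.56, Nkx2-9, a homeobox gene, 6.17, Hopx 5.48, the calcium-binding protein gene S100b 3.99 and Cdkn1c, a cell-cycle inhibitor, 3.87. In the 24 Klk6-high cells S100b was at 2251, 3518 and 3634 CPM against 48.6, 68.9 and 102 in mature cells, and Apod, an apolipoprotein, at 6999, 8392 and 6811 against 2036, 2272 and 2196. Hopx was at 422, 851 and 438 CPM against 2.83, 5.22 and 3.17, and Pmp22, a peripheral myelin protein, at 1060, 741 and 950 against 66.5, 77.6 and 84.6. Opalin was low there, at 254, 67.7 and 110 CPM. Klk6 was read in choosing these cells, and the others were not.

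Enpp6 itself went with Klk6 among Trf and Ermn cells, whatever their Enpp6. The 59, 17 and 61 barcodes with at least 2 UMIs of Klk6 had 460, 523 and 252 CPM of Enpp6. The 465, 393 and 478 barcodes with none had 73.9, 68.8 and 65.1. Both sets were taken without the limits on Bmp4, Pdgfra, Cldn5, Cx3cr1 and Ntsr2. Ribosomal genes took 4.21%, 4.09% and 8.51% of UMIs in the Klk6 barcodes and 4.07%, 4.34% and 4.93% in the others. Of the 18 mature-stage genes, 8 were higher and 2 lower in 9630013A20Rik-low than in mature cells (median 0.71, beside 0.09 for all genes), while of 20 myelin protein genes 0 were higher and 0 lower. The mature-stage list holds Trf and Ermn, which chose the mature cells. The hemoglobin gene Hbb-bs (-4.53), Ptgds (-1.80) and Il33 (-1.71) were among the 8 genes that were lower.

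The share of selected cells was highest on chow. They made up 1.49% [1.17 to 1.86] of kept barcodes in SC, 1.03% [0.753 to 1.39] in HFHS_5d and 0.9998% [0.754 to 1.30] in HFHS_15d, with overlapping intervals. Of all barcodes of the lineage (precursors, committed precursors, selected and mature cells, 831, 635 and 774) they made up 9.15%, 6.93% and 7.11%. 9630013A20Rik-low cells went from 0.919% [0.676 to 1.22] in SC to 0.541% [0.343 to 0.811] and 0.345% [0.208 to 0.539], and the intervals of SC and HFHS_15d did not overlap. Barcodes with Klk6, Trf and Ermn whatever their Enpp6 numbered 59, 17 and 61 of 5116, 4252 and 5501 kept barcodes, fewest in HFHS_5d. They were taken without the limits on Bmp4, Pdgfra, Cldn5, Cx3cr1 and Ntsr2. Ribosomal genes took 4.21%, 4.09% and 8.51% of their UMIs, and whether the HFHS_15d barcodes are the same kind was not tested. 9630013A20Rik-high cells were 0.567% [0.380 to 0.813], 0.494% [0.306 to 0.754] and 0.654% [0.459 to 0.905]. Of the selected cells, 38.2% [27.2 to 50.02], 47.7% [32.5 to 63.3] and 65.5% [51.4 to 77.8] were 9630013A20Rik-high. Committed precursors, at 1.52%, 1.03% and 1.13% of kept barcodes, were also at a lower share in both diet libraries, with overlapping intervals.

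The rule counts UMIs, and the depth of selected cells differed between libraries beside these shares. On barcodes thinned to 3000 UMIs the rule took 32 of 3413, 13 of 2899 and 29 of 3467. On these counts the share of HFHS_15d lay closer to that of SC than HFHS_5d did. The part of depth, dissociation and pool in the shares was not tested. Fewer cells of a kind and less RNA in each cannot be told apart where a cell enters by its UMIs.

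**Figure D4:**
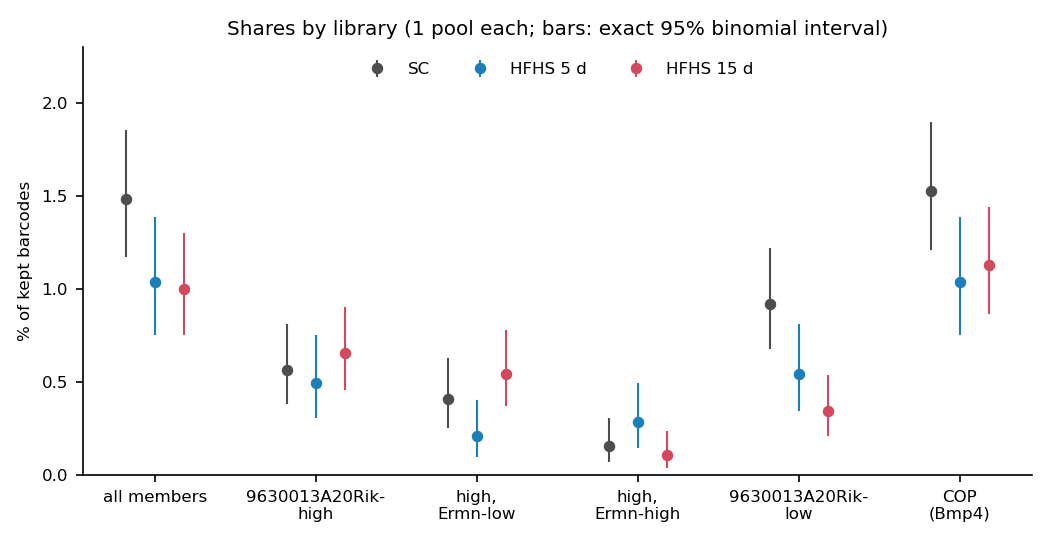
The y axis gives the percent of kept barcodes in each library for all selected cells, for 9630013A20Rik-high and 9630013A20Rik-low cells and for the neighbouring stages, with exact 95% intervals for counting error as bars. The 9630013A20Rik-low cells go from 0.919% in SC to 0.345% in HFHS_15d, while the 9630013A20Rik-high cells stay between 0.494% and 0.654%.

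Between diets, genes were read by another fixed size, called the size rule below. A gene needed 100 or more UMIs over the 2 libraries, 30 CPM in at least 1 of them, a ratio of 1.5 or more either way, and an interval that lay wholly beyond a difference of 25%. At 5 days of HFHS, 92 of 4450 genes (2.07%) were higher and 85 (1.91%) lower than in SC over all selected cells. At 15 days, 204 of 4029 (5.06%) were higher and 227 (5.63%) lower. Both comparisons use the same SC library, so what they have in common is not independent. At 5 days, 9630013A20Rik-high cells had 53 higher (2.16%) and 97 lower (3.94%) of 2459, and 9630013A20Rik-low cells 61 (2.26%) and 53 (1.96%) of 2704. Within kinds the counts at 15 days were smaller than over all selected cells: 35 (1.49%) higher and 72 (3.07%) lower of 2343 in 9630013A20Rik-high cells, and 44 (2.04%) and 30 (1.39%) of 2154 in 9630013A20Rik-low cells. Committed precursors had 10 higher (0.267%) and 60 lower (1.6%) of 3744 genes at 5 days and 51 (1.41%) and 92 (2.55%) of 3606 at 15 days, and mature cells 36 (0.779%) and 12 (0.26%) of 4619, and 62 (1.33%) and 38 (0.814%) of 4666. The mix of kinds moved with the diet, so the genes below are given within kinds.

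Stage lists were therefore read over all cells and within kinds. The newly-formed-stage list holds Enpp6, Tcf7l2 and Bcas1, which chose the cells, and 9630013A20Rik, which set the kinds. Its counts are therefore a description. Over all selected cells at 15 days, 21 of 26 newly-formed-stage genes were above SC (median log2 ratio 0.46, beside 0.02 for all genes; 10 higher and 3 lower passed the size rule). Within Ermn-low cells 8 of 23 were above SC (median -0.11), within Ermn-high cells 16 of 20 (median 0.24) and within 9630013A20Rik-low cells 7 of 16 (median -0.16). Likewise, 17 of 18 mature-stage genes were below SC over all selected cells (median -1.02), and 14 of 18 in 9630013A20Rik-low cells (median -0.13).

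At 5 days, Txnip, Dgat2 and Fam13c went the same way in each kind. Txnip, a thioredoxin-binding protein whose transcript is known to follow glucose, was at 26.1 CPM (45 UMIs) in SC and 73.6 (94 UMIs) in HFHS_5d, a log2 ratio of 1.5 [0.97 to 2.05]. It was at 76.6 and 157 CPM in Ermn-low, 24.4 and 97.1 in Ermn-high and 5.87 and 28.8 in 9630013A20Rik-low cells, the last on 6 and 17 UMIs. Committed precursors had 18.8 and 18.2 CPM and mature cells 7.78 and 7.74. At 15 days Txnip was at 72.4 CPM over all selected cells (1.47), at 84.1, 138 and 12.5 in the 3 kinds and at 9.73 in mature cells. At 15 days the difference from SC lay mainly in the Ermn-high cells; the Ermn-low values were close, and the 9630013A20Rik-low value rests on 3 UMIs.

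Dgat2, the last enzyme of triglyceride synthesis, was lower at 5 days, with 96.7 CPM in SC and 39.2 in HFHS_5d (-1.30 [-1.79 to -0.84]). The values were 204 and 87.2 CPM in Ermn-low, 164 and 56.3 in Ermn-high and 34.2 and 10.2 in 9630013A20Rik-low cells, against 55.3 and 58.1 in mature cells and 82.6 and 65.6 in committed precursors. At 15 days it was back near SC, at 109 CPM. Fam13c was at 264 CPM in SC, 72.8 in HFHS_5d (-1.86 [-2.20 to -1.53]) and 411 in HFHS_15d; in Ermn-low cells it was at 788, 238 and 629 CPM and in mature cells at 133, 127 and 129. For both genes the 5-day library stood apart from the other diets.

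The metallothioneins were higher on the diet in 9630013A20Rik-high cells. Mt1, which binds zinc and copper, was at 1746, 2906 and 2951 CPM in SC, HFHS_5d and HFHS_15d in Ermn-low cells and at 1300, 2655 and 3207 in Ermn-high cells. Mt2 was at 115, 343 and 230 CPM and at 83.6, 212 and 196 CPM. In 9630013A20Rik-high cells together the log2 ratios to SC were 0.80 and 0.94 for Mt1 and 1.26 and 1.12 for Mt2, and all 4 passed the size rule. Mt1 was at 840, 770 and 1326 CPM in 9630013A20Rik-low cells, 330, 240 and 442 in committed precursors and 1005, 1103 and 1539 in mature cells, and at 15 days it also passed the size rule as higher in 9630013A20Rik-low (0.66) and mature cells (0.61). Tulp3, a cargo adaptor of cilia, was at 31.2, 131 and 161 CPM in 9630013A20Rik-high cells (2.07 and 2.37), and at 33.2, 44.1 and 25 in 9630013A20Rik-low and 21.6, 20.9 and 34.4 in mature cells. Its difference in HFHS_5d lay in Ermn-high cells (34.9 and 157 CPM) and in HFHS_15d in Ermn-low cells (28.7 and 197 CPM).

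Cholesterol genes were above SC at 5 days and near it at 15 days over all selected cells. At 5 days all 23 measured genes were above SC over all selected cells (median 0.57, beside -0.02 for all genes), and 7 passed the size rule, among them Mvk (1.11) and Mvd (1.01), which act in the mevalonate pathway. The summed level was 4522 CPM [4423 to 4624] in SC and 6759 [6617 to 6903] in HFHS_5d. Ermn-low cells did not have it, with 8 of 17 genes above SC (median -0.01), and the shares of the kinds differed: Ermn-high cells were 8 of 76 in SC and 12 of 44 in HFHS_5d. Within Ermn-high cells 15 of 23 were above SC (median 0.19), and within 9630013A20Rik-low cells 19 of 22 (median 0.42), with the summed level of Klk6-high cells at 4786 and 7665 CPM and of Klk6-low cells at 2814 and 2605. Committed precursors went the other way, with 18 of 20 genes below SC (median -0.62) and 5 past the size rule as lower, and mature cells had a median of -0.03.

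At 15 days 10 of the 23 genes were above SC and 13 below over all selected cells (median -0.17), and 1 passed the size rule in each direction. In 9630013A20Rik-high cells 17 of 22 were below SC (median -0.41, beside -0.002 for all genes). There 5 passed as lower, where 72 of 2343 genes (3.07%) did: Hmgcs1 (-1.57), Msmo1, Insig1, Fdps, which shares its strand and span with Gm43738, and Idi1. Hsd17b7 passed as higher (1.09). Ermn-high cells, which had the highest summed level in SC, were 8 of 29 in SC and 6 of 36 in HFHS_15d. Within kinds 12 of 17 genes were below SC in Ermn-low cells (median -0.41) and 11 of 16 in Ermn-high cells (median -0.24). Hmgcs1 was at 596 CPM in SC and 356 in HFHS_15d in Ermn-low cells and at 2980 and 1083 in Ermn-high cells. It was at 441 and 210 in committed precursors and 718 and 488 in mature cells, so it was lower in those stages also. In 9630013A20Rik-low cells 11 of 17 genes were above SC (median 0.05).

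Genes of endoplasmic reticulum chaperones, which fold secreted and membrane proteins, and of its stress response were read as 1 list. They were mostly below SC at 15 days in each kind. Over all selected cells 18 of 20 were below SC (median -0.46); in Ermn-low cells 13 of 13 (median -0.45), in Ermn-high cells 9 of 9 (median -0.69) and in 9630013A20Rik-low cells 18 of 18 (median -0.46). All genes had medians between -0.05 and 0.02 in these groups. At 5 days 12 of 21 were below SC over all selected cells (median -0.04). Within kinds 12 of 13 were below SC in Ermn-low cells (median -0.41) and 12 of 18 in 9630013A20Rik-low cells (median -0.14). In Ermn-high cells 10 of 13 were above SC at 5 days (median 0.18). In 9630013A20Rik-high cells 6 passed the size rule as lower, beside 3.07% of all genes, namely Pdia6 (-1.06), Sdf2l1 (-0.98), Pdia3 (-0.95), Manf (-0.69), Calr (-0.66) and Hspa5 (-0.63). Hspa5, the chief chaperone BiP, was at 541, 564 and 445 CPM in SC, HFHS_5d and HFHS_15d in Ermn-low cells, 749, 761 and 276 in Ermn-high cells and 552, 451 and 396 in 9630013A20Rik-low cells. Mature cells had 17 of 21 below SC (median -0.37) and committed precursors 11 of 19 (median -0.13), so most were below SC there also.

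Myelin proteins were mostly below SC at 15 days. In the 9630013A20Rik-high cells 15 of 18 were below SC (median -0.41) and 5 passed the size rule as lower, beside 3.07% of all genes, among them Opalin (-1.94) and Mog (-1.56), with Mal higher (1.73). In 9630013A20Rik-low cells 17 of 20 were below SC (median -0.11) and 0 passed. Within Ermn-low cells 10 of 16 were below SC (median -0.12) and within Ermn-high cells 14 of 18 (median -0.39). The neighbouring stages were below SC too, with 16 of 18 genes in precursors (median -0.91), 15 of 17 in committed precursors (median -0.31) and 15 of 20 in mature cells (median -0.06). Mog was at 333 and 120 CPM in Ermn-low, 955 and 458 in Ermn-high and 2248 and 1964 in 9630013A20Rik-low cells, and at 2242 and 1769 in mature cells. Ctps, which makes CTP, was lower too (-2.53), at 641 and 138 CPM in Ermn-high cells and 161 and 120 in mature cells. Arap2 (-2.04) was at 704 and 269 CPM in Ermn-high cells.

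**Figure D5:**
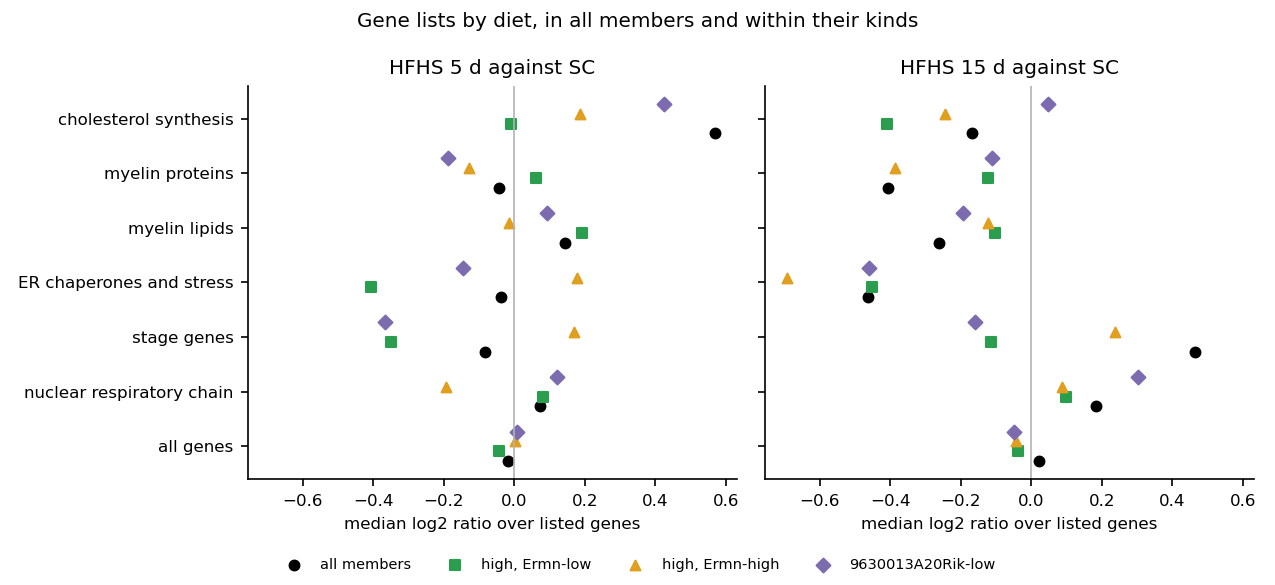
The x axis gives the median log2 ratio to SC of the genes of each list with at least 50 UMIs, for 5 and 15 days of HFHS, in all selected cells and in 3 kinds. At 15 days the newly-formed-stage list lies at 0.46 over all cells and between -0.16 and 0.24 within kinds, while the endoplasmic reticulum list lies between -0.45 and -0.69 in all of them.

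Among the largest differences, that of Gstp1 was shared with neighbouring stages and that of Oxt rested on few cells. The others below are given with their values in other cells or without their top cells. Gstp1, a glutathione transferase, was at 104 CPM in SC and 376 in HFHS_15d (1.86), and it was about as far apart in mature cells (197 and 1019 CPM) and committed precursors (32.7 and 178 CPM). Ctsc, a lysosomal protease, had 112 UMIs in SC, 2 in HFHS_5d and 0 in HFHS_15d, where 3 UMIs would be 3.62 CPM; its SC UMIs were all in Klk6-low cells (157 CPM), and mature cells had 14.1, 1.08 and 4.07 CPM. Hspa1b, a heat-shock gene with the near-identical copy Hspa1a, was at 90.9, 27.4 and 8.44 CPM, and at 55.3, 42.1 and 34.2 in mature cells. Oxt, a neuropeptide, was at 6.95 and 473 CPM in SC and HFHS_5d, and without the 2 cells with 1% or more neuron-list UMIs its log2 ratio was -0.28. Vim was at 9.26 and 70.5 CPM (2.93), with 6.97 and 1.94 in Ermn-high cells. Apoe, an apolipoprotein of astrocytes, was at 281 and 782 CPM (1.48), and 0.87 without its top cell in each library, beside the higher astrocyte markers of HFHS_5d; the part of free or neighbouring-cell RNA was not tested.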

How the data were processed

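Single cells of 3 libraries were read by 3' sequencing, and the deposited matrices list UMI counts for each gene in each barcode, as the file headers give them. Reads were processed with Cell Ranger on GRCm38 (SAMtools and Scanpy 1.4.4 are also named), per the submitters' processing notes. A software version of 3.1.0 stands in the headers. The annotation is not given in the sources used here. Of 31253 genes listed, counts were summed per library and kind of cell and given as CPM. Ratios have exact conditional binomial intervals, sums Poisson intervals and shares Clopper-Pearson intervals, all at 95%. There is 1 library per diet, so no test was made. The sums were checked and the size rules tested on simulated data.

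Cells were clustered with Scanpy 1.11.5 (3000 variable genes without the 8 genes of the rule, 40 components, 15 neighbours, resolution 1). Doublets were not removed; Scrublet called 1.95%, 1.67% and 1.98% of barcodes in SC, HFHS_5d and HFHS_15d. Removing the highest scores (0.8% per 1000 barcodes) took 1, 0 and 1 selected cells. Python 3.11.15, NumPy 2.4.6, SciPy 1.17.1 and pandas 2.3.3 were used.

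The members, the 31 gene lists (599 genes, 1 of them not found) and the rules were chosen with earlier results of these data known. Named genes were the genes of the rule, up to 6 per list, and, by size, 10 per direction for stages, 8 per direction for diets and 6 per direction for the myelin ranges. Gene models, ribosomal and mitochondrial genes were left out of the naming by size. Some genes that this rule names are not reported here. Genes shown beyond this rule, such as the course of a list's member through the stages, were named after their values were seen. Gene positions are GENCODE's (release vM21, GRCm38) and promoter sequences RefSeq's, on GRCm38.p6. The alternatives tried changed the scaling, the filters, the weight of cells, single top cells, depth, doublets and the cells compared.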

Additional observations from a re-analysis of the deposited data

How the results depend on the processing

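No paired analysis was possible because each diet had 1 library and the labels give no replicate numbers. Depth set the limit: the 55 cells of HFHS_15d held 829094 UMIs, and genes under 30 CPM in both libraries did not enter the size rule. Comparisons restricted by 9630013A20Rik, Trf and Ermn, and that without neuron-rich cells, were chosen after seeing the data.

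The share of selected cells in SC, 1.49%, became 1.86% with at least 1000 genes, 1.86% with at most 10% mitochondrial UMIs, 1.04% with 5 UMIs of Enpp6, 0.938% on thinned barcodes, 2.97% with no upper limits and 0.567% in 9630013A20Rik-high cells. In HFHS_5d it became 0.753% with 5 UMIs of Enpp6, 0.448% thinned, 2.14% without limits and 0.494% in 9630013A20Rik-high cells. In HFHS_15d it became 0.727%, 2.18% without limits and 0.654%, and on thinned counts the rule took 29 of 3467 barcodes.

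At 5 days the 92 higher genes became 235 with no minimum, 52 without each gene's top cell, 13 thinned, 57 in cells with under 2 UMIs of Mog, 53 and 61 in 9630013A20Rik-high and -low cells, and 24 and 43 in Ermn-low and Ermn-high cells. The 85 lower genes became 175 with no minimum, 8 thinned, 132 with 5 UMIs of Enpp6, 53 in 9630013A20Rik-low cells, and 45 and 30 in Ermn-low and Ermn-high cells. At 15 days the 204 higher genes became 379 with no minimum, 42 thinned, 34 with little Mog, 35 and 44 in 9630013A20Rik-high and -low cells, and 37 and 30 in Ermn-low and Ermn-high cells. The 227 lower genes became 53 thinned, 37 with little Mog, 72 and 30 in 9630013A20Rik-high and -low cells, and 53 and 38 in Ermn-low and Ermn-high cells. Against mature cells, the 264 higher genes became 525 in 9630013A20Rik-high and 64 in 9630013A20Rik-low cells, and the 41 lower became 415 and 8, and 65 without each top cell. Against precursors, the 648 higher and 1566 lower genes became 1108 and 956 with median-of-ratios scaling.

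These named genes reversed, and the cause was not tested. At 5 days, in cells with under 2 UMIs of Mog, Oxt had a log2 ratio of -0.45, Ntrk2 -1.13, Apoe -1.42 and Nnat -1.59. In Ermn-high cells Vim had -1.84, Ntrk2 -0.41, Nnat -0.84 and Ptprj 1.16. Oxt had -0.28 without neuron-rich cells, and Ppfibp1 0.12 in 9630013A20Rik-low cells. At 15 days Tulp3 had -0.41 in 9630013A20Rik-low cells, Adk 0.26 and Selenop 0.065 in 9630013A20Rik-high cells, Selenop 1.65 in Ermn-high cells, and Cdc42ep1 0.031 in cells with little Mog. Of the other values of lists and named genes, 457 were classed as the same and 9 list medians moved. A further 123 values of named genes kept the direction only. Named genes classed as the same kept their direction and size class. List medians were classed by their distance from the main value beside the spread over genes, without regard to sign.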
